A study of Homo sapiens with 6 samples.

Results

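The NF-κB genes described here are 10 of the 58735 genes in the table: the subunits NFKB1, NFKB2, RELA and RELB, and the direct targets NFKBIA, TNFAIP3, CXCL8, CXCL1, BIRC3 and ICAM1. They were chosen by name, and each name matched 1 row. RNA was sequenced from the established human colorectal cancer line SW480, in 2 groups of 3 libraries. The control group (titled si_NC) received a negative control siRNA and the other group (si_ITGB4) an siRNA against ITGB4, the integrin β4 subunit. The labels give genotype WT for all 6 libraries, so the groups share the line, its genome and a transfection, and differ in the siRNA. No untransfected library was analysed here. The labels give no siRNA sequence, no second siRNA and no time after transfection. The series calls the 3 libraries of a group biological replicates, of 1 cell line.

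NF-κB is a family of dimeric transcription factors that in resting cells is held in the cytoplasm by IκB proteins. Receptors of the TNF, interleukin-1 and Toll-like families activate the IKK kinase complex, which marks IκB for destruction and so frees dimers such as RELA with p50 (the product of NFKB1). A second branch, run by the kinase NIK (the product of MAP3K14), processes the NFKB2 product to p52, the partner of RELB. Among the genes these factors switch on are their own inhibitors, IκBα (NFKBIA) and A20 (TNFAIP3), which end the signal, and chemokines that draw neutrophils (CXCL8, CXCL1). In colon epithelium the pathway is known for linking inflammation to tumour growth.

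Direct targets are so called because NF-κB dimers bind short κB sites near them, and NFKB1 and NFKB2 are known to be induced in the same way, so the sites are shown before the values. RefSeq promoter windows (GRCh38.p14; 250 bases before to 50 after a start) were searched on both strands for GGANNTTCC and GGGNNTTCC. This pair was kept after 5 patterns had been tried and the members' matches seen, so the number of members matched depends on that choice. Of the 10 members, 9 have a window there (all but RELB), and 8 hold a match in 1 or more (all of these but RELA). Counted the same way, 12.9% of all 27305 genes with a window hold a match in 1 or more (10.8% of all 35116 windows), and so do 16 of 27 other NF-κB target genes listed further on. Of the other patterns, the 10-letter κB consensus matched 6 members, not RELA, CXCL8 or ICAM1, and 7.09% of all genes with a window. A stricter 10-letter form (GGG, any 2 letters, TTTCC) matched the same 6 and 2.33%. GGANNTTCC alone matched 7 (not RELA or BIRC3) and 5.57%, and a loose form (GGG, any 5 letters, CC) all 9 and 61.7%. Because the members were picked as known targets and the letters with their matches in view, their share is a description. Capitals mark the match, each sequence reads in the direction of its gene, and 1 site is shown for each of the 8 members. The printed matches of TNFAIP3 and BIRC3 fit a pattern on the opposite strand only. The 10 capitals of NFKB2 are overlapping matches on both strands. NFKB2, NFKBIA, TNFAIP3 and CXCL1 held more than 1 site.
NFKB1: gacgtcagtgGGAATTTCCagccaggaag
NFKB2: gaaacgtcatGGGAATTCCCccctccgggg
NFKBIA: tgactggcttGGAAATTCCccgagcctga
TNFAIP3: acgtgactttGGAAAGTCCcgtggaaatc
CXCL8: tgcaaatcgtGGAATTTCCtctgacataa
CXCL1: tggaactccgGGAATTTCCctggcccggg
BIRC3: tttgggtcatGGAAATCCCcgagtgggtt
ICAM1: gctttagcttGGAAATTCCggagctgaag
The stretches lie at chr4:102501301-102501329 (NFKB1, plus strand), chr10:102394461-102394490 (NFKB2, plus), chr14:35404812-35404840 (NFKBIA, minus) and chr6:137867182-137867210 (TNFAIP3, plus). The others lie at chr4:73740468-73740496 (CXCL8), chr4:73869305-73869333 (CXCL1), chr11:102317275-102317303 (BIRC3) and chr19:10270924-10270952 (ICAM1), all plus. The matches begin 48, 107, 81, 67, 91, 78, 199 and 186 bases before a RefSeq start, in the order of the printed lines. In GENCODE 29 the matches of TNFAIP3, NFKB2 and ICAM1 lie in an exon of the gene itself, from a transcript with an earlier start, and that of NFKB1 lies in an exon of AF213884.3. Those of NFKBIA, CXCL8, CXCL1 and BIRC3 lie in no annotated gene. CXCL8, CXCL1 and NFKB1 hold the same 9 letters in capitals, and their levels in the sections that follow are far apart.

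The libraries held 13715266 to 15496274 recovered reads. ITGB4 was at 74.3, 63.8 and 69.8 FPKM (fragments per kilobase of gene, scaled to library size) in control replicates 1, 2 and 3 and at 41.1, 38.1 and 37.9 FPKM in the ITGB4 siRNA libraries. Its mean fell by 43.7%, and the groups did not overlap (log2 fold change -0.81, limma adjusted p = 0.0148). The call was lost in 6 of 13 alternative analyses, with a limma adjusted p of up to 0.137. Of 7 colon epithelial markers 6 were above 1 FPKM on average, and VIL1 (villin) was not. Their summed level was 1471 to 1649 FPKM in control and 1523 to 1564 FPKM in ITGB4 siRNA libraries. Leukocyte markers summed to 3.05 to 3.44 and 2.82 to 3.41 FPKM over 6 genes, fibroblast markers to 0.464 to 0.843 and 0.452 to 0.667 over 5 genes, and endothelial markers to 1.12 to 1.32 and 0.889 to 1.25 over 4 genes. COL1A2, DCN, LUM and CDH5 had 0 reads in all 6 libraries. The leukocyte marker CD74 (2.21 FPKM) and the endothelial marker ESAM (1.002) were above 1 FPKM on average. The leukocyte marker CD14 averaged 0.745 FPKM, beside 0.706 for VIL1. In bulk RNA, fewer expressing cells and less RNA per cell cannot be told apart.

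FPKM is per gene length, so levels can be ordered across the members. RELA was the highest, at 17.7 FPKM on average over the 6 libraries, above 95.3% of the genes in the table. NFKB2 (11.6 FPKM), NFKB1 (10.6) and ICAM1 (10.3) followed, and the ranges of neighbours in this order overlapped. NFKBIA (5.37 FPKM) and RELB (4.55) came next, with ranges that overlapped each other and lay below that of ICAM1. TNFAIP3 (0.292 FPKM) and BIRC3 (0.27) were lower again and overlapped each other. CXCL8 (0.0291 FPKM) and CXCL1 (0.0171) were at the bottom, with 6 and 2 reads in all 6 libraries together. The subunits, IκBα and ICAM1 were thus measured well above the filter of 1 FPKM, while the other 4 targets were under it.

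On GRCh38, as the table gives them, NFKB1 lies on chromosome 4 (102501329 to 102617302), NFKB2 on 10 (102394110 to 102402529) and RELB on 19 (45001430 to 45038198). NFKBIA lies on chromosome 14 (35401511 to 35404749, minus strand), TNFAIP3 on 6 (137867188 to 137883312), BIRC3 on 11 (102317450 to 102339403) and ICAM1 on 19 (10270835 to 10286615). CXCL8 (73740506 to 73743716) and CXCL1 (73869393 to 73871242) lie in the chemokine cluster of chromosome 4. All but NFKBIA and RELA are on the plus strand, and all 10 are annotated as protein coding.

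**Figure D1:**
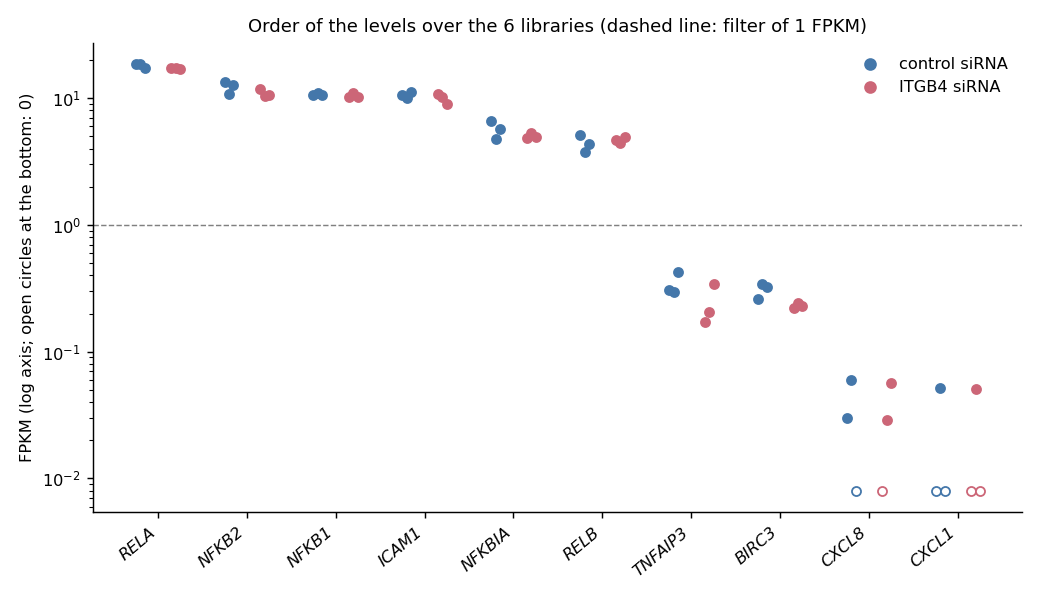
FPKM of the 10 NF-κB genes (log axis) in each of the 6 SW480 libraries, with genes ordered by their mean, blue for control siRNA and red for ITGB4 siRNA. Open circles at the bottom are libraries with 0 reads, and 6 genes lie above the dashed line at 1 FPKM, the filter for testing.

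The 6 members above the filter were tested with limma on log2(FPKM + 1) among 12871 genes, and 0 of them were called changed at an adjusted p under 0.05, where 0.0466% of all tested genes were. At an unadjusted p under 0.05 limma also gave 0 of 6, against 5.83% of all tested genes, and limma-voom on recovered reads called 0. Of the 6, 5 had a log2 fold change below 0 and 1, RELB, above it, with a median of -0.08, while 51.5% of all tested genes were below 0, with a median of 0.00. Their exact two-sided permutation p-values ran from 0.1, the smallest that 3 against 3 libraries allow, to 0.6. The 95% interval given for each gene is the range of differences that these libraries do not exclude.

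RELA, the transactivating subunit of the canonical dimer, was at 18.5, 18.6 and 17.4 FPKM in controls and at 17.3, 17.2 and 17.1 FPKM after ITGB4 siRNA. Every ITGB4 siRNA library lay below every control library, the nearest of them by less than the spread among controls. RELA was the 1 tested member of 6 with groups apart and lower, as were 5.36% of all tested genes. Its mean was 18.1 ± 0.649 FPKM (SD, n = 3) against 17.2 ± 0.128 (SD, n = 3), a difference of -5.29%. The log2 fold change was -0.07 (limma, adjusted p = 0.983), with a 95% interval of -0.18 to 0.03 and an SE of 0.0455. RELA lies on GRCh38 chromosome 11, 65653596 to 65663094, minus strand, and overlaps AP001362.2 on the opposite strand, which was at 2.37 FPKM. Strandedness is not given in the labels, so reads of such a pair cannot be told apart.

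NFKB1 encodes p105, the precursor of p50. It was at 10.5, 11.0 and 10.5 FPKM in controls and at 10.3, 11.0 and 10.3 FPKM after ITGB4 siRNA. The groups overlapped almost wholly, with replicate 2 the highest in both. The log2 fold change was -0.02 (limma, adjusted p = 0.998), with a 95% interval of -0.14 to 0.10 and an SE of 0.0502, and on the scale of FPKM + 1 the interval runs from -9.04% to 7.27%. NFKB1 rests on 2992 reads in the control and 2945 in the ITGB4 siRNA libraries.

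NFKB2 encodes p100, which is both an inhibitor and the precursor of p52. It was at 13.4, 10.8 and 12.8 FPKM in controls and at 11.8, 10.4 and 10.6 FPKM after ITGB4 siRNA. Control replicate 2 lay within the range of the ITGB4 siRNA libraries, and the other 2 control libraries lay above it. The mean was 12.3 ± 1.40 FPKM against 10.9 ± 0.733 (SD, n = 3 each), a difference of -11.5%. The log2 fold change of -0.16 had a 95% interval of -0.37 to 0.05 (SE 0.0889, limma adjusted p = 0.951). Without control replicate 2 it was -0.25 (limma adjusted p = 0.67).

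RELB, the partner of p52, was at 5.14, 3.76 and 4.32 FPKM in controls and at 4.71, 4.42 and 4.95 FPKM after ITGB4 siRNA. The control libraries held both the highest and the lowest of the 6 values. Its log2 fold change was 0.08 (limma, adjusted p = 0.998), with a 95% interval of -0.16 to 0.32 and an SE of 0.1003, and it turned to -0.01 without control replicate 2. Within a library, RELB was at 0.279, 0.202 and 0.248 times the FPKM of RELA in controls and at 0.272, 0.257 and 0.290 times after ITGB4 siRNA, and the groups overlapped. The ratio of NFKB2 to NFKB1 was 1.28, 0.982 and 1.22 in controls and 1.14, 0.947 and 1.03 after ITGB4 siRNA. The mix of subunit transcripts therefore overlapped between the groups. The 4 subunits summed to 47.6, 44.1 and 45.0 FPKM in controls and to 44.1, 43.0 and 42.9 FPKM after ITGB4 siRNA.

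**Figure D2:**
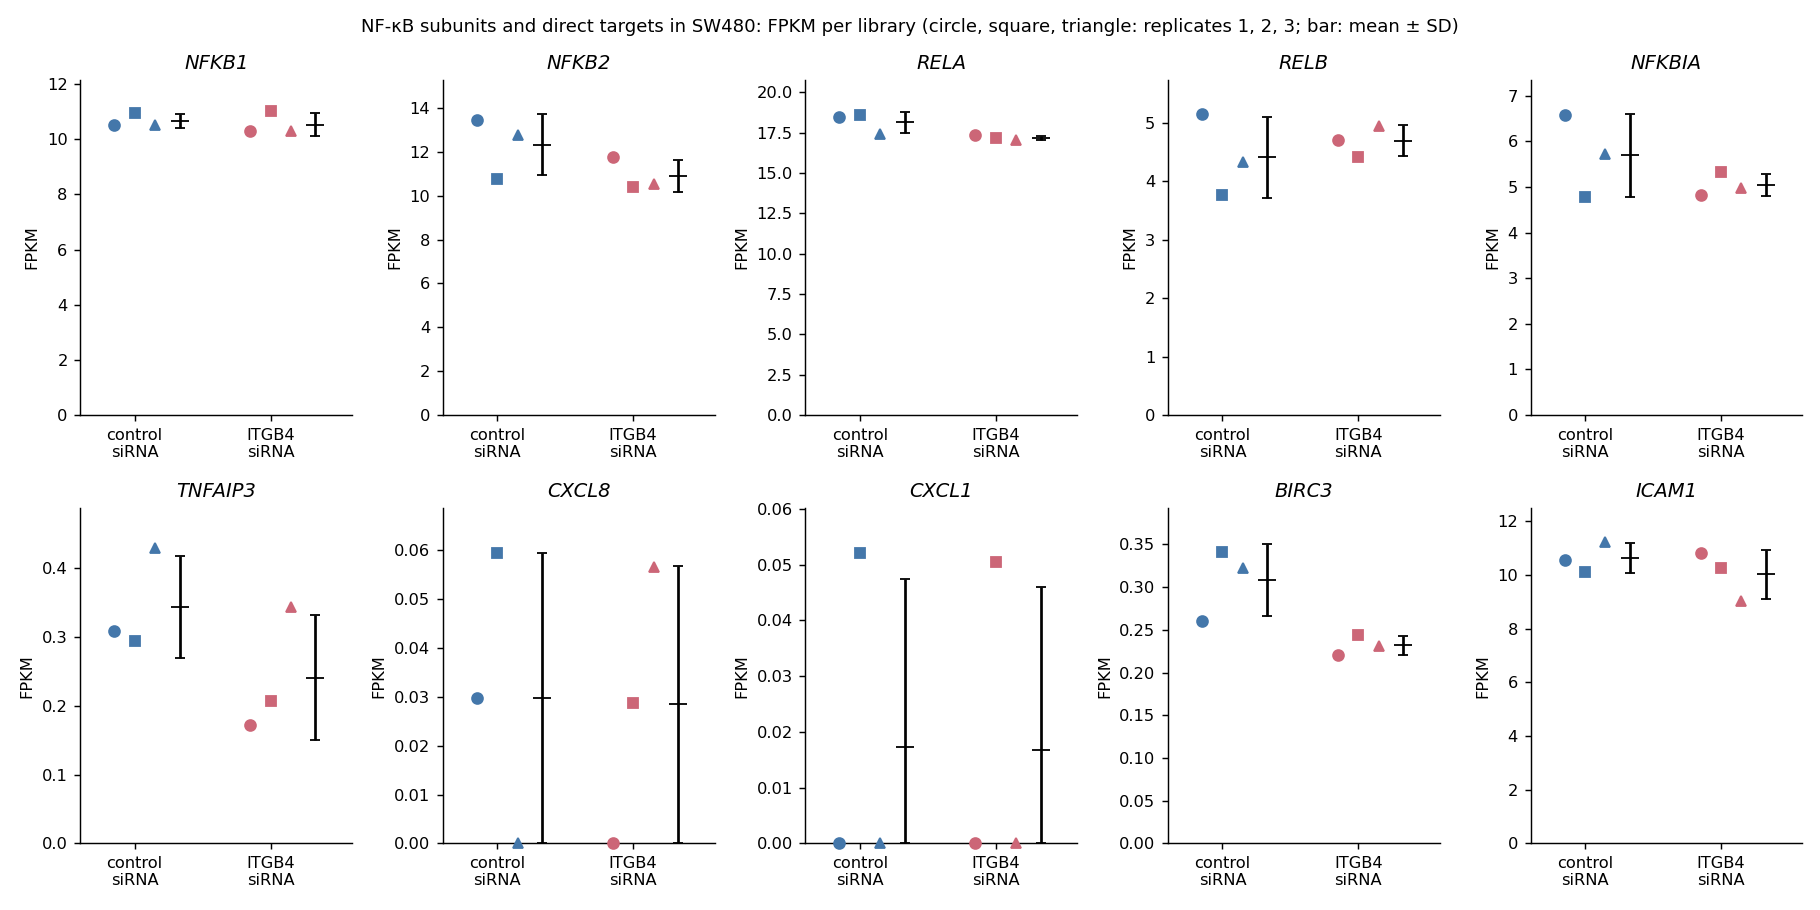
FPKM of each NF-κB gene in 3 control siRNA (blue) and 3 ITGB4 siRNA (red) libraries of SW480, with circles, squares and triangles for replicates 1, 2 and 3 and a black bar for mean ± SD, cut at 0. The groups overlap in 8 genes and lie apart in RELA and BIRC3, and CXCL8 and CXCL1 rest on at most 2 reads in a library. RELA was tested, and 5.36% of all tested genes were likewise lower with groups apart. BIRC3 was under the filter and not tested, and the share was 5.59% of such genes with at least 10 reads.

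NFKBIA encodes IκBα, whose resynthesis after NF-κB activation ends the response. It was at 6.58, 4.78 and 5.72 FPKM in controls and at 4.84, 5.32 and 4.98 FPKM after ITGB4 siRNA. The lowest control library lay below all 3 ITGB4 siRNA libraries and the other 2 lay above them. The mean was 5.69 ± 0.901 FPKM against 5.05 ± 0.25 (SD, n = 3 each), a difference of -11.4%. On the log2 scale limma gave -0.14 (adjusted p = 0.998), with a 95% interval of -0.38 to 0.10 and an SE of 0.1023. Its size depended on single control libraries, at -0.04 without control replicate 1 and -0.24 without control replicate 2 (limma adjusted p = 0.891 and 0.719). Relative to RELA in the same library, NFKBIA was at 0.356, 0.257 and 0.329 in controls and 0.279, 0.310 and 0.292 after ITGB4 siRNA.

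TNFAIP3 encodes A20, a ubiquitin-editing enzyme that shuts off signalling from the TNF receptor. It was at 0.308, 0.294 and 0.429 FPKM in controls and at 0.172, 0.207 and 0.343 FPKM after ITGB4 siRNA. The third ITGB4 siRNA library lay above 2 of the control libraries, so the groups overlapped. These levels rest on 23, 22 and 33 reads in the control and 12, 16 and 27 reads in the knockdown libraries, and the gene was under the filter and not tested. Scaled by depth, the summed reads were at 0.711 times the control, with an exact interval for counting error alone of 0.494 to 1.02. The antisense gene AL357060.1 overlaps TNFAIP3 on the opposite strand and was at 0.0973 FPKM.

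BIRC3 encodes cIAP2, a ubiquitin ligase that blocks cell death and acts in the TNF receptor complex. It was at 0.261, 0.341 and 0.323 FPKM in controls and at 0.221, 0.244 and 0.231 FPKM after ITGB4 siRNA. Every ITGB4 siRNA library lay below every control library, with a difference in means of -24.8% (0.308 ± 0.0421 against 0.232 ± 0.0115 FPKM; SD, n = 3 each). The reads were 29, 38 and 37 against 23, 28 and 27, and the ratio of the depth-scaled sums, 0.756, had a counting interval of 0.556 to 1.02. BIRC3 was under the filter and was not tested. Of the 2 members under the filter with at least 10 reads, BIRC3 and TNFAIP3, 1 was lower with groups apart, as were 5.59% of all 8599 such genes.

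ICAM1, the intercellular adhesion molecule that binds leukocyte integrins, was at 10.5, 10.1 and 11.2 FPKM in controls and at 10.8, 10.3 and 9.03 FPKM after ITGB4 siRNA. ITGB4 siRNA replicate 3 was the lowest of the 6, and the other 2 ITGB4 siRNA libraries lay inside the control range. The log2 fold change was -0.08 (limma, adjusted p = 0.998), with a 95% interval of -0.26 to 0.10 and an SE of 0.0751. ICAM1 rests on 1768 and 1657 reads in the 2 groups. The antisense gene AC011511.5 on the opposite strand was at 0.0308 FPKM.

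CXCL8 (interleukin-8) and CXCL1 attract neutrophils through the receptor CXCR2 and are among the most strongly NF-κB-inducible genes of epithelia. CXCL8 had 1, 2 and 0 reads in controls and 0, 1 and 2 reads after ITGB4 siRNA. CXCL1 had 0, 1 and 0 reads in each group. With so few reads neither gene gives a fold change. A library with 3 reads would have been at 0.0847 to 0.0952 FPKM for CXCL8 and 0.149 to 0.167 FPKM for CXCL1, and no library reached these levels. Both genes were therefore near the limit of detection in both groups, and each carries the κB letters printed above.

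**Figure D3:**
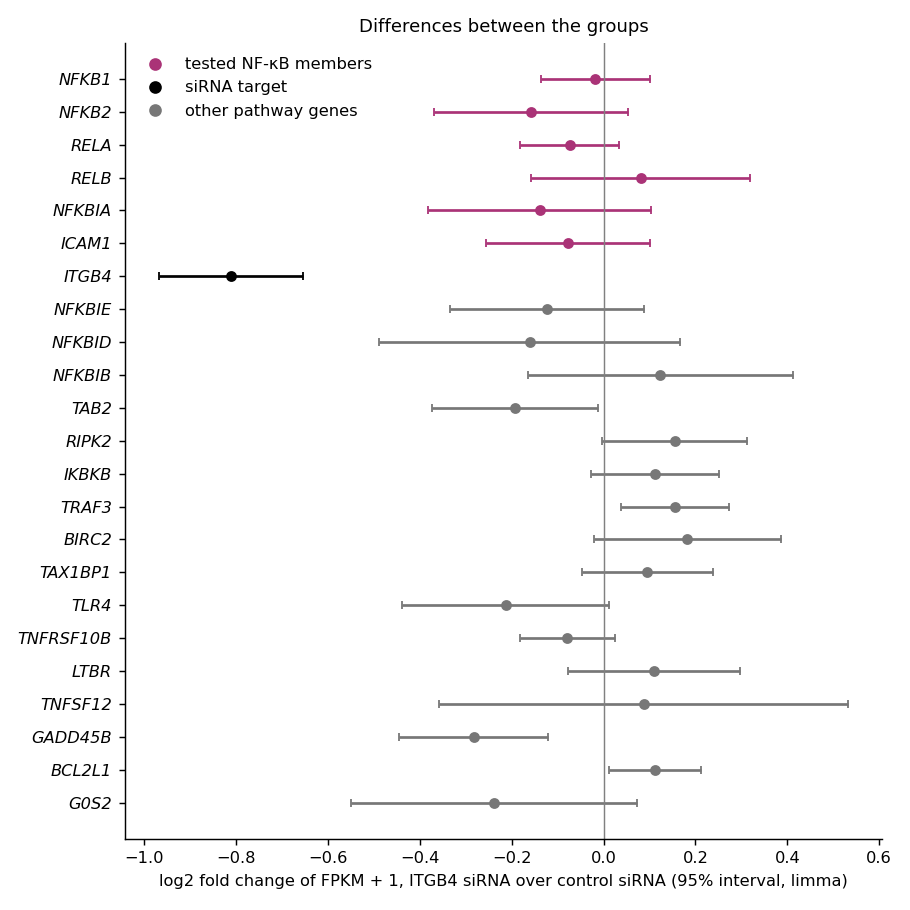
Log2 fold change of FPKM + 1 (ITGB4 siRNA over control siRNA) with its 95% limma interval for the 6 tested NF-κB genes (purple), ITGB4 (black) and other named pathway genes (grey). The intervals of the 6 members all include 0 and ITGB4 lies at -0.81.

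The rest of the pathway was described with 6 lists of other genes, 94 names in all, of which 58 were tested. Limma called 0 of the 58. At an unadjusted p under 0.05 limma gave 2 lower and 2 higher, against 2.92% and 2.91% of all tested genes. Limma-voom called 0 of the 58. It gave 6 of them at an unadjusted p under 0.05, beside 731 of all 12871 tested genes. The limma log2 fold changes of the 58 were below 0 in 31 and above 0 in 27, with a median of 0.00. The pathway genes thus lay around 0 like the table as a whole.

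Few of the ligands that start the signal were measured. Of 10 ligand genes 1, TNFSF12 (TWEAK), was tested, at 2.49 ± 0.568 FPKM in controls and 2.73 ± 0.835 after ITGB4 siRNA (SD, n = 3 each), on 53 to 94 reads a library. IL1A and IL1B were under the filter, at 0.682 and 0.370 FPKM on average over the 6 libraries. They had 55 and 52 reads in controls and 74 and 51 after ITGB4 siRNA, with overlapping groups. TNF and CD40LG had 0 reads in all 6 libraries. For TNF a library with 3 reads would have been at 0.115 to 0.129 FPKM. Of 15 receptor genes 9 were tested, 5 below 0 and 4 above. TLR4, the receptor of bacterial lipopolysaccharide, was at 1.77, 2.22 and 1.84 FPKM in controls and at 1.42, 1.54 and 1.65 FPKM after ITGB4 siRNA (log2 fold change -0.21, limma adjusted p = 0.883). TNFRSF10B, a TRAIL receptor, was at 16.0 ± 0.194 and 15.1 ± 0.379 FPKM (-0.08, limma adjusted p = 0.951; SD, n = 3 each). In both of these receptor genes the groups did not overlap, as in 5.36% of all tested genes in that direction. LTBR, the lymphotoxin β receptor that feeds the NIK branch, had overlapping groups, at 11.5 ± 1.02 and 12.4 ± 0.899 FPKM (SD, n = 3 each).

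Adaptors and ubiquitin enzymes had 16 tested genes, 9 below 0 and 7 above, with a median of -0.01. TRAF3, the adaptor that keeps NIK low in resting cells, was at 12.2, 11.6 and 12.5 FPKM in controls and at 13.8, 13.8 and 13.2 FPKM after ITGB4 siRNA. Its groups did not overlap, as in 5.75% of all tested genes in this direction, and its log2 fold change was 0.16 (SE 0.0497, unadjusted p = 0.0167, limma adjusted p = 0.741). BIRC2 (cIAP1), the close relative of BIRC3, was at 6.69 ± 0.486 and 7.74 ± 0.818 FPKM (SD, n = 3 each). Its groups overlapped (log2 fold change 0.18, limma adjusted p = 0.92). TAX1BP1, a partner of A20, had a log2 fold change of 0.10 with overlapping groups.

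The 14 genes of the IKK complex and the kinases above it were all tested, with 6 below 0, 8 above and a median of 0.02. TAB2, which brings the kinase TAK1 to ubiquitin chains, was at 13.9 ± 1.40 FPKM in controls and 12.0 ± 0.425 after ITGB4 siRNA (log2 fold change -0.19, limma adjusted p = 0.817; SD, n = 3 each). RIPK2, the kinase downstream of NOD receptors, was at 5.78 ± 0.441 and 6.54 ± 0.285 FPKM (0.15, limma adjusted p = 0.856; SD, n = 3 each). IKBKB, the IKKβ catalytic subunit, was at 3.20, 3.01 and 3.06 FPKM in controls and at 3.46, 3.37 and 3.43 FPKM after ITGB4 siRNA (0.11, limma adjusted p = 0.938). In RIPK2 and IKBKB, named for their small p-values, the ITGB4 siRNA libraries all lay above the control libraries. They were 2 of the 14, where 5.75% of all tested genes were higher with groups apart.

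Of 6 other Rel and IκB genes 3 were tested. NFKBIE (IκBε) was at 3.89 ± 0.505 and 3.47 ± 0.168 FPKM, NFKBID at 3.42 ± 0.596 and 2.96 ± 0.595, and NFKBIB (IκBβ) at 21.0 ± 3.67 and 22.8 ± 1.92 (SD, n = 3 each), all with overlapping groups. NFKBIB was thus the most abundant IκB transcript of those listed, above NFKBIA in every library. The coactivator gene BCL3, REL and NFKBIZ were under the filter.

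**Figure D4:**
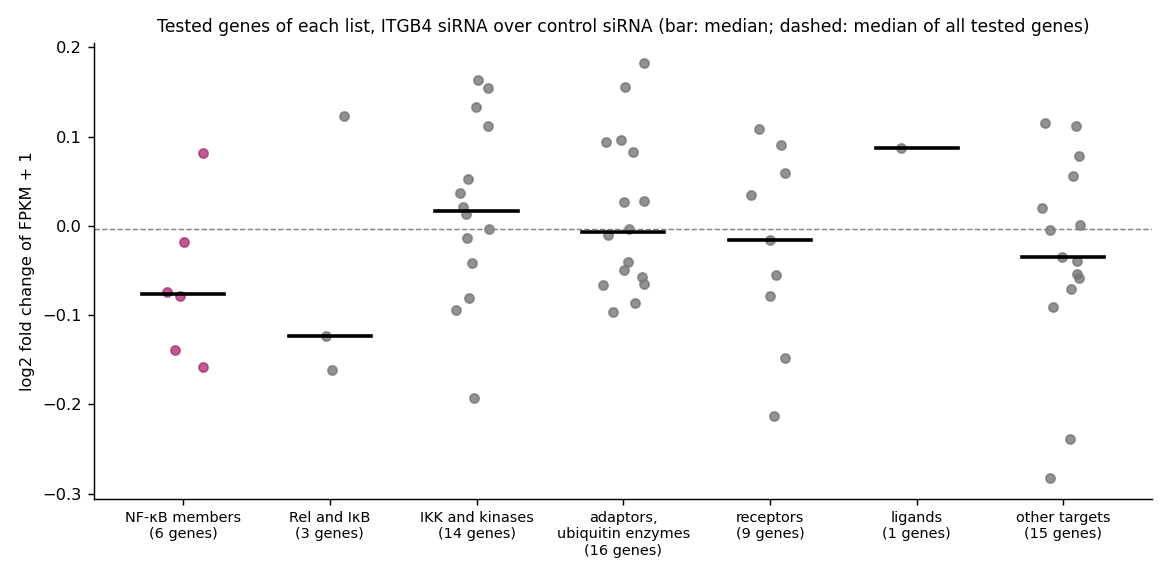
Log2 fold changes of FPKM + 1 (ITGB4 siRNA over control siRNA) for the tested genes of each NF-κB list, one point a gene, with a bar at the median and a dashed line at the median of all tested genes. Points of every list with more than 1 gene lie on both sides of 0, and the members' median is -0.08.

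Other NF-κB target genes had 32 names and 33 rows, since SOD2 has 2, and 15 were tested, with 9 below 0, 6 above and a median of -0.03. GADD45B, a stress gene that restrains JNK signalling, was at 15.6, 13.0 and 14.3 FPKM in controls and at 11.6, 11.5 and 11.7 FPKM after ITGB4 siRNA. GADD45B was the 1 gene of the 15 that was lower with groups apart, beside 5.36% of all tested genes. Its means differed by -19.2% (log2 fold change -0.28, SE 0.0683, unadjusted p = 0.00453, limma adjusted p = 0.514). BCL2L1, which encodes the survival protein BCL-XL, was at 60.6, 57.6 and 56.7 FPKM in controls and at 62.0, 64.0 and 63.3 FPKM after ITGB4 siRNA (0.11, unadjusted p = 0.0327, limma adjusted p = 0.813). It was the 1 gene of the 15 that was higher with groups apart, beside 5.75% of all tested genes. G0S2, an inhibitor of fat breakdown, was at 3.82 ± 0.817 and 3.06 ± 0.363 FPKM (SD, n = 3 each), on 35 to 61 reads a library and with overlapping groups. The target genes CXCL5, CXCL10, CCL2, IL6, VCAM1, SELE and BCL2A1 had 0 reads in all 6 libraries.

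Under the filter, 6 of the other target genes had at least 10 reads, besides the members BIRC3 and TNFAIP3. Together 4 of these 8 had every ITGB4 siRNA library below every control and 0 had them above, beside 5.59% and 4.43% of all genes under the filter with at least 10 reads. The 4 were BIRC3, CXCL2, CXCL3 and MMP9, named after their values were seen. The minimum of 10 reads and the pooling of the members with the other targets were also chosen after the values were seen. CXCL2, CXCL3, MMP9 and PTGS2 had under 10 reads in the ITGB4 siRNA group (2, 9, 8 and 4) and more in controls (13, 21, 17 and 12), so they passed the minimum through the group where they were high. The count is therefore a description and supports no difference. The other targets alone gave 3 of 6. For members and other targets together, a minimum of 5 reads gave 4 of 12, one of 20 reads 3 of 6, and one of 40 reads 1 of 4 (BIRC3), where 5.59%, 5.50% and 5.22% of all such genes were lower with groups apart. CXCL2 and CXCL3 are close relatives of CXCL1 that bind the same receptor. CXCL2 had 2, 5 and 6 reads against 1, 0 and 1, and CXCL3 had 9, 5 and 7 reads against 1, 3 and 5. CXCL3 thus had 5 reads in a library of each group, and its groups lay apart only after scaling by depth. MMP9, a matrix protease, had 5, 6 and 6 reads against 3, 1 and 4. IL32, PTGS2 and PLAU overlapped between the groups. CXCL1, CXCL2 and CXCL3 have similar sequences and reads could be split among them, so their reads were also summed. The sum was 11, 11 and 13 reads in controls and 2, 4 and 6 reads after ITGB4 siRNA. Scaled by depth, this was 0.346 times the control. CXCL2 and CXCL3 were picked by their low values, so this ratio is a description and supports no difference. No test was made on these genes, which were singled out by their values, and at such counts 1 or 2 reads decide whether groups overlap.

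**Figure D5:**
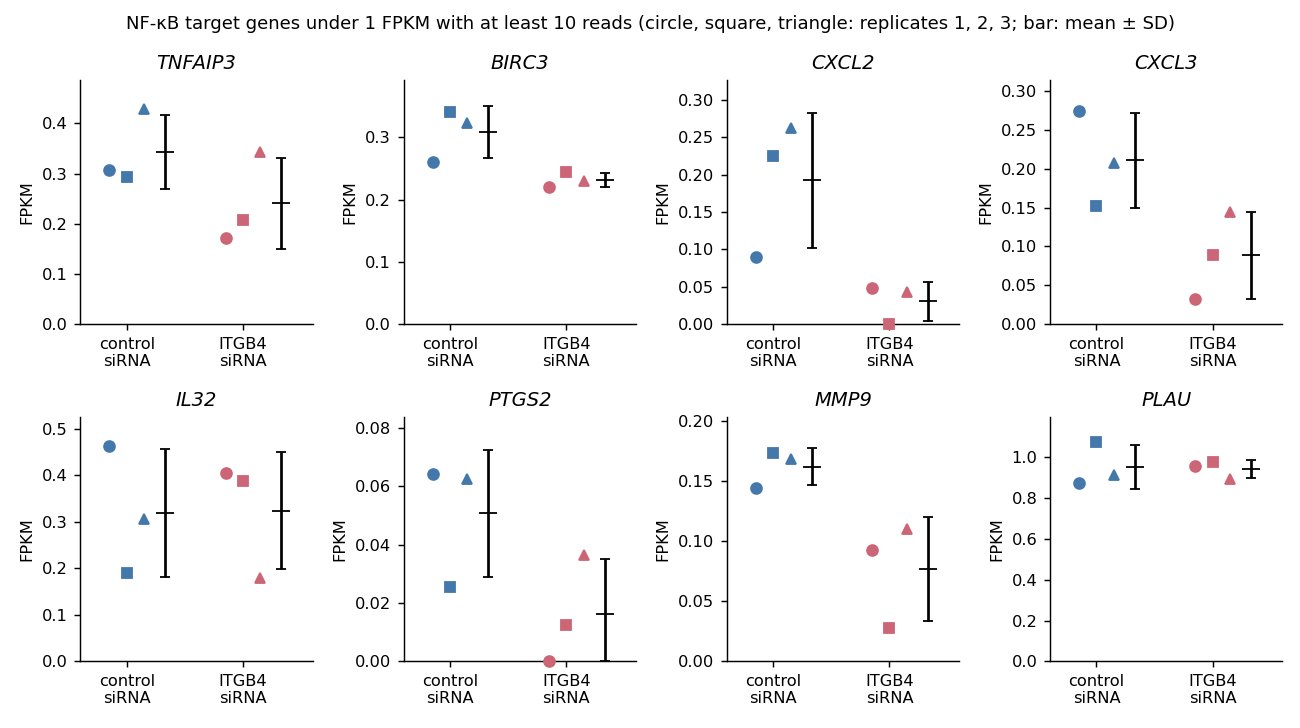
FPKM of the 8 NF-κB target genes under 1 FPKM that had at least 10 reads, in 3 control siRNA (blue) and 3 ITGB4 siRNA (red) libraries, with circles, squares and triangles for replicates 1, 2 and 3 and a black bar for mean ± SD, cut at 0. BIRC3, CXCL2, CXCL3 and MMP9 have all red points below all blue points, and the other 4 genes overlap. Of all genes under the filter with at least 10 reads, 5.59% were lower with groups apart. CXCL2, CXCL3 and MMP9 passed the minimum of 10 reads through their control reads, so the count is a description.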

How the data were processed

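RNA of 6 SW480 libraries, 3 a group, was captured on poly-T beads, per the labels' protocols. The authors deposited FPKM for 58735 genes with gene lengths in bases (GRCh38, per the submitters' processing notes, which name DESeq2 and edgeR without a role). The aligner, counting tool, strandedness and the library size behind the FPKM are not given in the sources used here. The authors' FPKM times gene length gave whole reads for 100% of non-zero values in each library (tolerance 0.01), 13715266 to 15496274 reads a library. Tested members rest on at least 159 reads in a library (NFKBIA), tested pathway genes on at least 35 (G0S2), and CXCL8 and CXCL1 on at most 2, so counting error differs widely among genes.

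Groups came from the titles. The 12871 genes averaging at least 1 FPKM were tested as log2(FPKM + 1) with limma 3.58.1 (trend, R 4.3.3), with no replicate term, two-sided, with Benjamini-Hochberg adjustment over all tested genes and a call at adjusted p under 0.05. Such fold changes understate those of low genes. The fit was tested on simulated data with changes larger than those of the tested members. That check therefore does not show how small a difference could be called. Permutation tests of mean FPKM were exact. Intervals are 95%. For members under the filter FPKM and reads are given, and read-ratio intervals (exact, conditional on the sum) cover counting error only, since reads without molecular identifiers are not independent molecules. Reads were recovered and figures drawn in Python 3.11.15. Named genes are the members, ITGB4 and up to 3 tested genes of each list with the smallest p, and others are marked. The members and lists were chosen with earlier results of these data known. Alternatives were the pseudocount, the filter, TPM, median-of-ratios scaling, a replicate block, limma-voom, leaving out each library and, added after seeing the data, other read minimums for low genes. The κB letters and the minimum of 10 reads were likewise chosen after seeing the data.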

Additional observations from a re-analysis of the deposited data

How the results depend on the processing

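No member was called changed in any of the 13 alternatives. Of their 77 comparisons, 75 kept the direction and 2 turned, both without control siRNA replicate 2: NFKB1 to 0.000422 (limma adjusted p = 0.999) and RELB to -0.00749 (limma adjusted p = 0.992). When leaving out 1 library, NFKB1 ran from -0.0476 to 0.000422, RELB from -0.00749 to 0.177 and TNFSF12 from -0.0779 to 0.244. Without control siRNA replicate 2, NFKB2 and NFKBIA passed an unadjusted limma p of 0.05 (0.0115 and 0.0217, limma adjusted p = 0.67 and 0.719). So did 851 of all 12871 tested genes. With the replicate block NFKB2 passed it (0.0382, limma adjusted p = 0.576), as did 1064 of all 12871. TNFSF12 turned to -0.0386 without control siRNA replicate 2 and to -0.0779 without ITGB4 siRNA replicate 1, and the other 200 comparisons of pathway genes kept direction and call. Without the filter BIRC3 had a log2 fold change of -0.09 and TNFAIP3 of -0.12 (limma adjusted p = 0.898 for both). The count of low target genes that were lower with groups apart was 4 of 8 at a minimum of 10 reads. It was 4 of 12, 3 of 6 and 1 of 4 at minimums of 5, 20 and 40 reads, which were chosen after seeing the data. Of all genes under the filter, 5.59% were lower with groups apart at 10 reads, and 5.59%, 5.50% and 5.22% at the others. CXCL2, CXCL3 and MMP9 passed the minimum of 10 reads through their control reads, so the count is a description.

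ITGB4 ranged from -0.87 to -0.76 and lost its call in 6 of 13 alternatives (limma adjusted p up to 0.137). Over all genes, limma called 6, 3 higher and 3 lower. With no filter it called 0 genes, 0 higher and 0 lower, of 31956 tested (1356 at an unadjusted p under 0.05). The replicate block gave 0, 0 and 0 (1064), ITGB4 having an adjusted p of 0.0564. Same-numbered libraries correlated at 0.173, 0.102 and -0.01 in their deviations, so the numbers were not taken to pair them. Limma-voom called 28, 13 higher and 15 lower, 5 of them shared. Leaving out 1 library gave 0 to 7 genes, 0 to 4 higher and 0 to 4 lower: 0 without any ITGB4 siRNA library and 3 without control siRNA replicate 3. The cause was not tested.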

Other observations

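NFKB2, RELB and NFKBIA were each highest in control siRNA replicate 1, intermediate in replicate 3 and lowest in replicate 2, and control replicate 1 exceeded replicate 2 by 0.30, 0.37 and 0.39 on the log2(FPKM + 1) scale. The other 3 tested members did not have this order: NFKB1 and RELA had differences of -0.05 and -0.01, and ICAM1 was highest in control replicate 3, as was TNFAIP3 among the members under the filter (23, 22 and 33 reads). The order was present in 28.2% of all tested genes. Among the tested genes of the pathway lists it was present in 3 of 3 other Rel and IκB genes (NFKBIB, NFKBIE and NFKBID), 6 of 16 adaptors and ubiquitin enzymes, 4 of 9 receptors, 4 of 15 other targets, 2 of 14 genes of the IKK list and 0 of 1 ligands. It was also present in 5 of 6 tested colon epithelial markers (KRT8, KRT18, KRT19, CDH1 and CDX2), so it was not confined to the pathway. The order was picked after the values were seen, and the part of library differences in the NF-κB values was not tested.

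Across the 6 pathway lists, 18 genes under the filter had at least 10 reads. Of these, 5 were lower with groups apart (BCL3, TNFSF10, CXCL2, CXCL3 and MMP9) and 0 were higher, beside 5.59% and 4.43% of all such genes. The rest had overlapping groups, with differences in both directions. Among them REL had 495 reads in controls and 500 after ITGB4 siRNA, TRAF1 191 and 204, and IL1A 55 and 74. NFKBIZ had 125 and 108, and TLR3 152 and 138. BCL3, a nuclear IκB protein that binds p50 and p52, had 40, 38 and 43 reads with control siRNA and 32, 21 and 27 with ITGB4 siRNA. TNFSF10, the death ligand TRAIL, had 40, 45 and 47 reads against 36, 26 and 29. Their depth-scaled ratios were 0.666 and 0.695, which are descriptions and support no difference. Both genes were named, and the minimum of 10 reads chosen, after the values were seen, and no test was made on them. CXCL2, CXCL3 and MMP9 passed this minimum through their control reads, so the count is a description. Minimums of 5, 20 and 40 reads gave 5 of 24, 4 of 14 and 2 of 12 lower with groups apart and 0 higher, beside 5.59%, 5.50% and 5.22% of all such genes lower and 4.01%, 4.57% and 4.92% higher.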
